A study of Homo sapiens with 12 samples.

Results

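The 36 genes described here encode aminoacyl-tRNA synthetases, the enzymes that join each amino acid to its transfer RNA, or subunits of them. They were chosen by name, as the rows of both deposited expression tables that carry exactly the listed symbols. That rule uses no measured value, although the list was chosen with earlier results of these data known. All 36 names were found among 23621 gene rows. Of these, 20 belong to the cytoplasmic enzymes, with FARSA and FARSB as subunits of 1 enzyme, and 16, with names ending in 2, to the mitochondrial enzymes. The tables use the symbols without a trailing 1, so that AARS is the gene now called AARS1. Every member passed the expression minimum, more than 1 FPKM in any of the 12 libraries, which 14251 genes met and which defines the active genes below.

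Aminoacyl-tRNA synthetases set the meaning of the genetic code, because each catalytic domain matches an amino acid with the transfer RNAs that carry its anticodons. Human cells run translation in the cytosol and, separately, on mitochondrial ribosomes, and for most amino acids a second nuclear gene encodes the enzyme that is imported into mitochondria. A few genes serve both compartments, and several of the cytoplasmic enzymes are held together with scaffold proteins in a multi-synthetase complex. Both catalytic folds of the family, class I and class II, occur in each compartment.

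The libraries came from KURAMOCHI (Ku) and COV362 (Cov) cells, established human ovarian cancer lines that were untransduced in this experiment. Cells received DMSO, the vehicle, or THZ1, a covalent inhibitor of the transcriptional kinases CDK7, CDK12 and CDK13, at 50 nM or at 250 nM, and all were harvested after 6 hr. Each line had 2 replicate libraries per treatment, 12 libraries in all, and the labels did not say whether replicates were separate cultures, so p-values measure the spread between these libraries, which may be technical. Ku cells grew in RPMI and Cov cells in DMEM, both with serum, so line and medium cannot be told apart. The comparisons ask how the inhibitor changed transcript levels at each dose.

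The values are FPKM, fragment numbers divided by transcript length and by the size of the library, which the authors rescaled to ERCC spike-in RNAs added in proportion to cell number. An FPKM therefore estimates transcript per cell. In these bulk samples, fewer expressing cells and less RNA per cell cannot be told apart. Sequencing depth was unknown, and FPKM of all genes summed to between 607000 and 1687000 per library. Each library held a low value shared by many rows, called its floor here, of 0.0783 to 0.119 FPKM, carried by 5276 rows in Ku cells and 4896 in Cov cells. Epithelial markers were present in the DMSO libraries, with PAX8 at 136.1 FPKM in Ku and 124.1 in Cov cells, but WT1 was at 0.653 in Cov, EPCAM at 4.13 in Ku and MUC16 at 0.166 in Ku cells. Of 3 immune, 2 endothelial and 3 fibroblast markers, PTPRC, CD3E, PECAM1 and DCN exceeded 1 FPKM in none of the libraries, CD68 did in all 12, and VWF, COL1A1 and COL3A1 in some. The summed level of each list stayed between 0.449 and 12.1 FPKM. Fold changes below are differences of mean log2(FPKM + 1), tested with limma in each line over all active genes with Benjamini-Hochberg adjustment, and calls required an adjusted p under 0.001 together with a log2 fold change beyond 0.5. The pseudocount of 1 understates the change of low genes. For groups of 2 libraries, the smallest two-sided p that exact permutation allows for 1 gene is 0.33.

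Most transcripts of these cells fell with THZ1, so the members are read against that background. The median log2 fold change of all active genes in Ku cells was -0.40 at the lower and -1.11 at the higher dose, and in Cov cells -0.85 and -1.31. After each library was scaled to an equal median FPKM, the median at 250 nM moved to 0.29 in Ku and 0.31 in Cov cells, and after median-of-ratios scaling to -0.0009 and 0.01. Of all active genes at 250 nM, equal-median scaling called 11.6% lower and 26.9% higher in Ku cells and 11.3% and 26.4% in Cov cells. Members are given below on the spike-in scale and also relative to the median of the active genes.

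In untreated cells the cytoplasmic genes were the more abundant class. Their mean FPKM in DMSO ran from 32.2 for CARS, which charges cysteine, to 274.8 for TARS, which charges threonine, in Ku cells, with a median of 86.0. In Cov cells they ran from 28.1 for CARS to 258.2 for KARS, the lysine enzyme, with a median of 117.3. The mitochondrial genes had medians of 18.4 and 20.1 FPKM. Their lowest member in both lines was PARS2, the mitochondrial proline enzyme, at 7.71 ± 0.82 FPKM (SD, n = 2) in Ku and 4.09 ± 0.42 in Cov cells, and their highest was IARS2, the mitochondrial isoleucine enzyme, at 79.2 ± 7.43 and 79.4 ± 7.74. The classes overlapped, since 4 mitochondrial genes in Ku and 7 in Cov cells lay above the lowest cytoplasmic gene. Together the cytoplasmic genes made up between 0.107% and 0.17% of all FPKM in a library, and the mitochondrial genes between 0.0166% and 0.0348%.

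**Figure D1:**
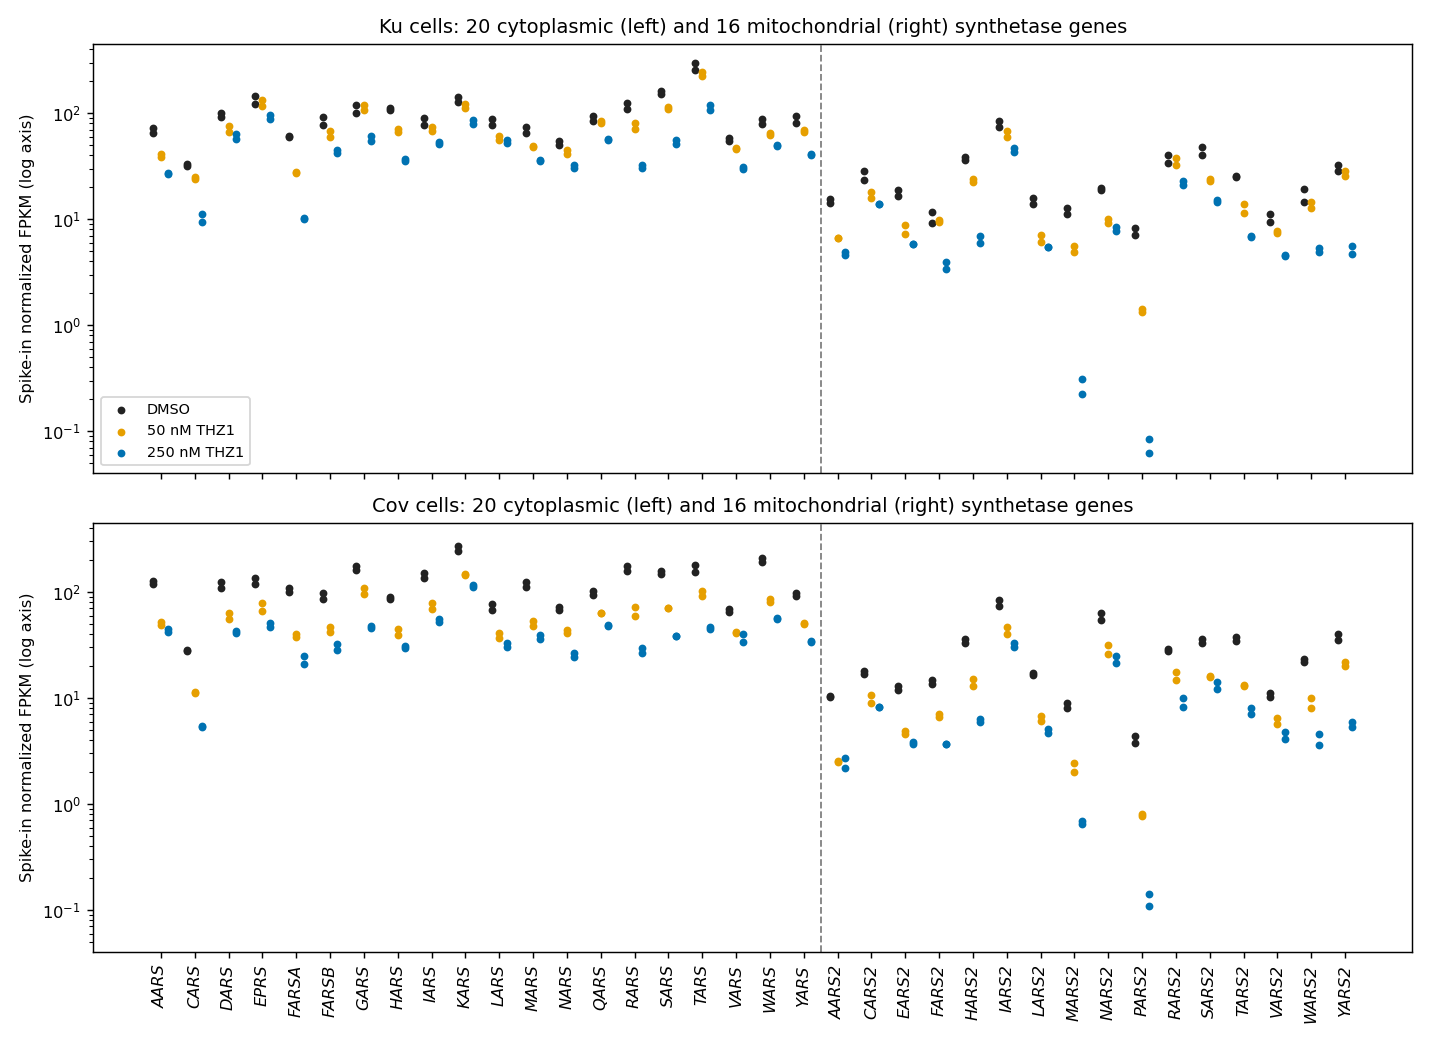
Spike-in normalized FPKM (log axis) of the 20 cytoplasmic and 16 mitochondrial synthetase genes in Ku cells (top) and Cov cells (bottom), with 1 point per library and 2 libraries per treatment. PARS2 and MARS2 reached the lowest levels, 0.0619 and 0.224 FPKM in their lowest Ku libraries at 250 nM, while the cytoplasmic genes stayed above 5 FPKM in every library.

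In Ku cells at 250 nM, 33 of the 36 members were called lower, 18 cytoplasmic and 15 mitochondrial, against 68.6% of active genes, whereas under equal-median scaling 2 members were lower and 17 higher and under median-of-ratios scaling 5 were lower and 12 higher. On the spike-in scale none was called higher by limma, as 0.0491% of active genes were, and none was higher at an unadjusted p under 0.05. Both 250 nM libraries lay below both DMSO libraries for all 36 members, as they did for 95.9% of active genes. Cytoplasmic genes had a median log2 fold change of -0.94, ranging from -1.08 to -0.82 when each treated library was set against each DMSO library (4 pairs), and -1.46 for the mitochondrial genes, ranging from -1.55 to -1.31. On this scale the cytoplasmic median lay above, and the mitochondrial median below, that of the active genes, but under equal-median scaling the mitochondrial median lay above it (0.38 against 0.29), and with no expression minimum the cytoplasmic median lay below that of all gene rows (-0.50). Of the cytoplasmic members 7 fell further than the median of the active genes, and of the mitochondrial members 12. The largest cytoplasmic fall was that of FARSA, the catalytic subunit of the phenylalanine enzyme. Its FPKM was 61.4 and 59.1 in DMSO and 10.3 and 9.94 at 250 nM, a log2 fold change of -2.46 ± 0.07 (SE) with a limma adjusted p of 6.51e-06. RARS, the arginine enzyme, went from 123.8 and 109.7 FPKM to 32.2 and 30.3, a log2 fold change of -1.87 ± 0.09 (adjusted p = 1.38e-05). HARS, the histidine enzyme, changed by -1.58 ± 0.06 (adjusted p = 8.71e-06). No treated library of these genes reached a DMSO library. The smallest changes were those of EPRS, LARS and QARS. EPRS, which charges both glutamate and proline from 1 polypeptide, had 144.2 and 121.6 FPKM in DMSO and 96.9 and 87.4 at 250 nM, and its log2 fold change of -0.52 ± 0.11 was not called (adjusted p = 0.00438). LARS, the leucine enzyme, was not called either, at -0.59 ± 0.09 (adjusted p = 0.00107), and QARS, the glutamine enzyme, was called at -0.65 ± 0.07 (adjusted p = 0.000197). Among the mitochondrial genes, RARS2, for arginine, was the only member not called, at -0.74 ± 0.12 (adjusted p = 0.00128), followed by IARS2 at -0.80 ± 0.10 (adjusted p = 0.000364) and CARS2, for cysteine, at -0.85 ± 0.12 (adjusted p = 0.000548). Without the replicate 1 library at 250 nM 18 members were called lower, and without the replicate 2 library 17, and either removal ended the calls of QARS, IARS2 and CARS2, as did removal of the DMSO replicate 1 library for IARS2 and CARS2.

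In Cov cells at 250 nM, all 36 members were called lower, against 84.0% of active genes, whereas under equal-median scaling 3 were lower and 13 higher and under median-of-ratios scaling 6 were lower and 1 higher. None was called higher by limma, against 0.105% of active genes, and none was higher at an unadjusted p under 0.05. The groups did not overlap for any member, as for 95.6% of active genes. The medians were -1.50 for the cytoplasmic genes (-1.58 to -1.43 over library pairs) and -1.64 for the mitochondrial genes (-1.70 to -1.62), both below the median of the active genes. The position of the cytoplasmic median turned with a pseudocount of 0.1 (-1.53 against -1.55 for the active genes), with equal-median scaling (0.54 against 0.31) and with median-of-ratios scaling (0.08 against 0.01). Among the cytoplasmic genes RARS had the largest fall, from 159.7 and 174.4 FPKM to 29.4 and 26.5, a log2 fold change of -2.54 ± 0.11 (adjusted p = 1.17e-06). CARS followed in that class at -2.19 ± 0.09 (adjusted p = 9.39e-07) and FARSA at -2.14 ± 0.11 (adjusted p = 1.78e-06). Over both classes the smallest falls were those of VARS, the valine enzyme, at -0.83 ± 0.10 (adjusted p = 9.90e-05), QARS at -0.999 ± 0.08 (adjusted p = 1.28e-05) and CARS2 at -1.004 ± 0.11 (adjusted p = 5.67e-05). VARS kept 34.1 and 39.9 of 64.2 and 68.8 FPKM, and its call was lost without the DMSO replicate 2 library. Values of the lines are set side by side because the tables were normalized separately, and the difference between the lines was not tested.

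**Figure D2:**
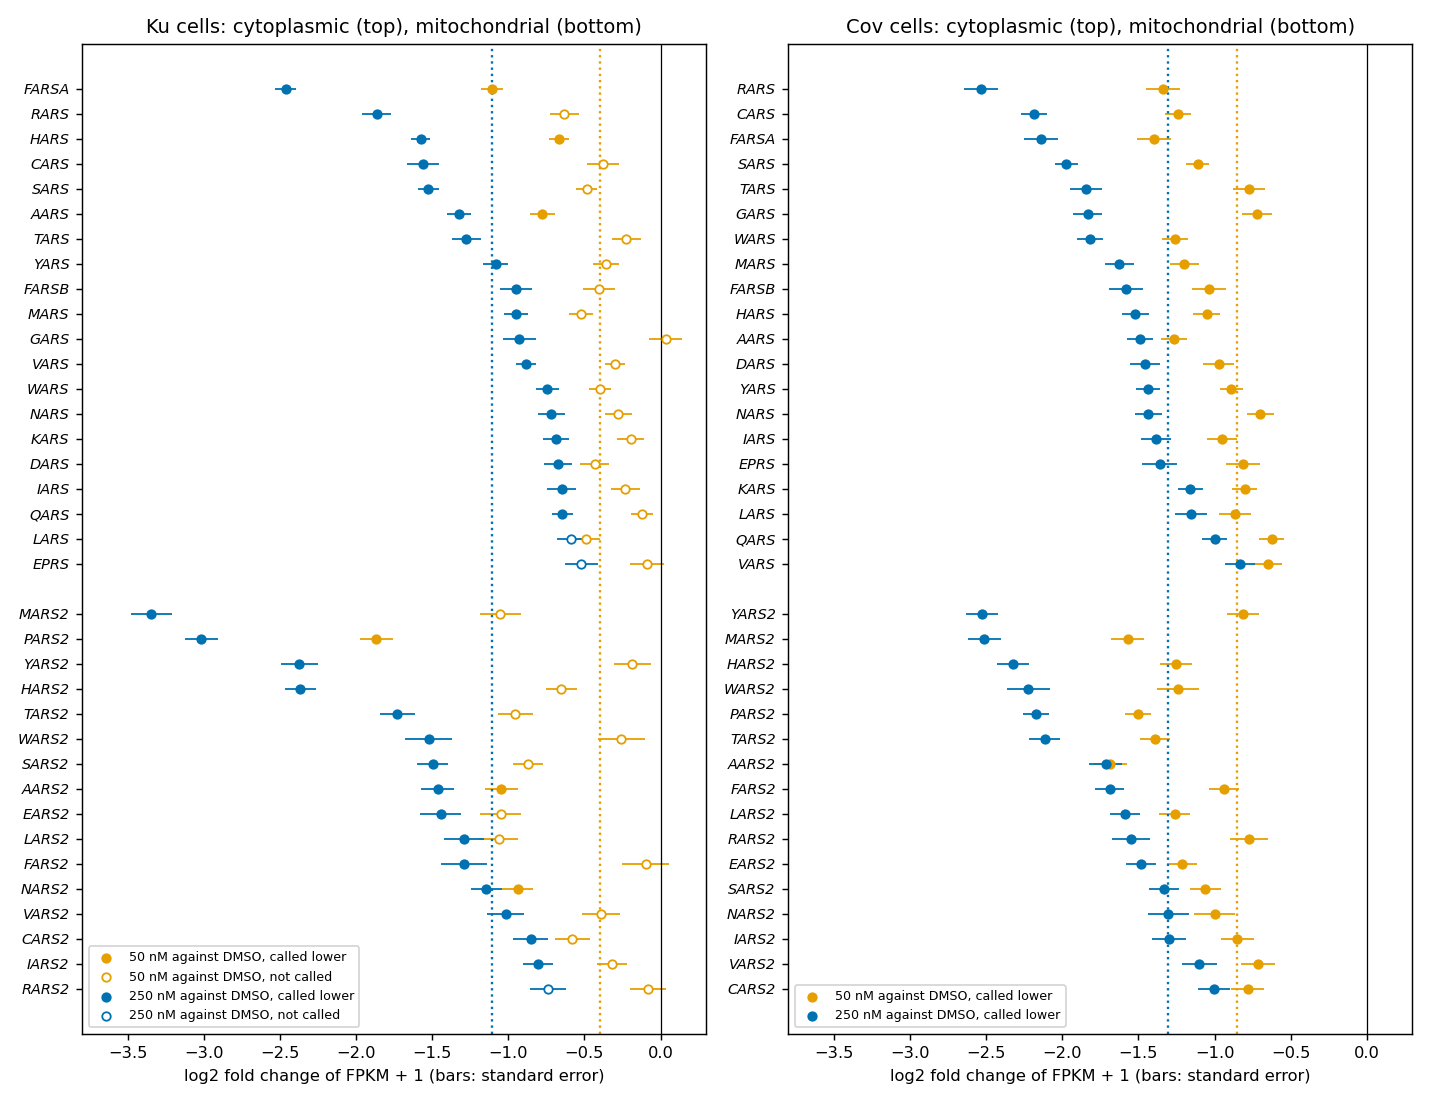
Log2 fold change of FPKM + 1 against DMSO for each member in Ku cells (left) and Cov cells (right), with standard errors from limma, filled where called. Dotted lines give the median of all active genes, -0.40 and -1.11 in Ku and -0.85 and -1.31 in Cov cells at 50 and 250 nM on the spike-in scale, and under equal-median scaling many members other than MARS2 and PARS2 turn positive.

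MARS2 and PARS2, the mitochondrial enzymes for methionine and proline, had the largest falls at 250 nM among the 36 members in Ku cells. RARS and YARS2 in Cov cells fell further than MARS2 on the log2(FPKM + 1) scale, and 6 members fell further than PARS2. By the ratio of mean FPKM in Cov cells, DMSO over 250 nM, MARS2 fell further, at 12.7, than YARS2 at 6.62 and RARS at 5.97. PARS2 fell further than MARS2 by that ratio, but was near the floor. In Ku cells MARS2 had 12.6 and 11.2 FPKM in DMSO, 5.58 and 4.87 at 50 nM and 0.224 and 0.311 at 250 nM. Its log2 fold change at 250 nM was -3.35 ± 0.14 (limma adjusted p = 8.835e-06), and the ratio of mean FPKM was 44.5. In Cov cells it had 8.13 and 8.98 FPKM in DMSO, 1.99 and 2.44 at 50 nM and 0.655 and 0.692 at 250 nM, a change of -2.51 ± 0.11 (adjusted p = 1.08e-06) and a ratio of 12.7. The 3 treatments did not overlap in either line. PARS2 went from 8.28 and 7.13 FPKM in DMSO to 1.42 and 1.33 at 50 nM and 0.0619 and 0.0848 at 250 nM in Ku cells. The lower of these 250 nM values is below its library's floor of 0.0783 and the other near its floor of 0.0822, so no ratio is given. On the log2(FPKM + 1) scale the change was -3.02 ± 0.11 (adjusted p = 7.34e-06). In Cov cells PARS2 went from 4.38 and 3.79 FPKM to 0.11 and 0.142 at 250 nM, a little above floors of 0.0943 and 0.105, a change of -2.17 ± 0.09 (adjusted p = 9.65e-07). MARS2 and PARS2 were called lower at 250 nM under the spike-in, equal-median and median-of-ratios scalings alike in both lines, and YARS2, the mitochondrial tyrosine enzyme, was in Cov cells. At 250 nM YARS2 changed by -2.37 ± 0.12 in Ku cells (adjusted p = 1.41e-05), from 32.6 and 28.7 FPKM to 5.56 and 4.66. In Cov cells it changed by -2.53 ± 0.10 (adjusted p = 9.96e-07), from 35.2 and 39.8 FPKM to 5.96 and 5.35.

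Both genes that kept their calls at 250 nM under the 3 scalings in each line have few exons. MARS2 spans chr2:198570093-198573119 on the plus strand of GRCh37 (GENCODE annotation lifted to that build) and its MANE Select transcript is 1 exon. PARS2 spans chr1:55222571-55230196 on the minus strand and has 2 exons. The 200 bases before each RefSeq start are shown because these promoters belong to the members with the largest fall in Ku cells. They are written 5′ to 3′ toward the gene, from the RefSeq promoter table on GRCh38.p14, at chr2:197705169-197705368 (plus strand) and chr1:54764524-54764723 (minus strand). Capitals mark the NRF1 core motif GCATGCGC, matched on both strands with overlap in MARS2, and the ETS motif CCGGAAGT, matched on the opposite strand in PARS2.
MARS2 upstream: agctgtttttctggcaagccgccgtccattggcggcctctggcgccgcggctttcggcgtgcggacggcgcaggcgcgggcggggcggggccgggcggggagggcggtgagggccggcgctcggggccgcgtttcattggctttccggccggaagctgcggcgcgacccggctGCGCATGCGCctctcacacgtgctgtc
PARS2 upstream: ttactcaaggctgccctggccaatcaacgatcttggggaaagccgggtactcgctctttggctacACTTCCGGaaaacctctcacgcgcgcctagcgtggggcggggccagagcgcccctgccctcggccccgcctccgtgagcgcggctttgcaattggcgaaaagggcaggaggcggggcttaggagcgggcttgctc

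HARS and HARS2, the cytoplasmic and mitochondrial histidine enzymes, lie head to head on chromosome 5 and share the stretch between their starts. In GRCh37 HARS covers chr5:140052620-140071122 on the minus strand and HARS2 chr5:140071015-140078890 on the plus strand, so in this annotation the first exons overlap. Whether the FPKM calculation used strand is not given in the sources used here, and their values are uncertain to that extent. In RefSeq the starts are 85 bases apart. The 84 bases between them, chr5:140691371-140691454 of GRCh38.p14 on the plus strand, are shown because they lie between the starts of both genes, with capitals for the ETS motif on either strand.
HARS-HARS2 between starts: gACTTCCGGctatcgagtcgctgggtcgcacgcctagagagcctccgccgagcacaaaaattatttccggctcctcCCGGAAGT
The ratio of the transcripts was higher at 250 nM in both lines, and in Cov cells already at 50 nM. HARS in Ku cells had 111.2 and 107.3 FPKM in DMSO, 70.5 and 66.3 at 50 nM and 36.8 and 35.1 at 250 nM. HARS2 in the same libraries had 38.4 and 35.95, then 24.1 and 22.6, then 6.94 and 5.89. At 50 nM the ratio of HARS to HARS2 within a library overlapped between treatments, at 2.90 and 2.98 in DMSO and 2.93 and 2.94 at 50 nM, and at 250 nM it was 5.30 and 5.97. HARS2 changed by -2.37 ± 0.10 at 250 nM (limma adjusted p = 9.92e-06), beside -1.58 for HARS. In Cov cells the ratio was 2.58 and 2.49 in DMSO, 3.05 and 2.94 at 50 nM and 5.16 and 4.63 at 250 nM. The change there was -1.52 ± 0.09 for HARS (adjusted p = 2.80e-06) and -2.32 ± 0.10 for HARS2 (adjusted p = 1.20e-06). The ratio within a library does not depend on how that library was scaled.

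The same ratio was formed for each amino acid with a cytoplasmic and a mitochondrial gene, 17 gene pairs over 16 amino acids, with EPRS standing for both glutamate and proline and both subunits of the phenylalanine enzyme set against FARS2. The ratios describe these pairs only, since no other gene pairs were set beside them. At 250 nM the mean log2 ratio was above DMSO in 14 of 17 pairs in Ku cells and 11 in Cov cells, with a median change of 0.54 and 0.39. Both 250 nM libraries lay above both DMSO libraries in 13 pairs in Ku and 11 in Cov cells, and below them in 3 and 6. At 50 nM they lay above in 11 and 9 pairs and below in 4 and 4, with a median change of 0.21 and 0.14, and some pairs ran the other way than at 250 nM. YARS to YARS2 changed by -0.17 and FARSB to FARS2 by -0.30 at 50 nM in Ku cells, and NARS to NARS2 by 0.31 in Cov cells, where it was at -0.13 at 250 nM. CARS to CARS2 changed by 0.21 at 50 nM in Ku cells, against -0.75 at 250 nM. At 250 nM 11 pairs moved up in both lines, 3 moved down and 2 moved in opposite directions, these being IARS with IARS2 and NARS with NARS2. The remaining pair, SARS with SARS2, overlapped in Ku and was down in Cov cells. The log2 ratio of MARS to MARS2 was higher by 4.53 in Ku and 2.01 in Cov cells. That of EPRS to PARS2 was also higher in both lines, but its size is not given, because PARS2 at 250 nM was at the floor in Ku and near it in Cov cells. The log2 ratio of YARS to YARS2 was higher by 1.48 and 1.26, and that of WARS to WARS2, the tryptophan pair, by 0.94 and 0.65. In 3 pairs the cytoplasmic gene lost more. CARS to CARS2 changed by -0.75 in Ku and -1.29 in Cov cells, RARS to RARS2 by -1.14 and -0.93, and FARSA to FARS2 by -1.07 and -0.25. CARS was above CARS2 in every DMSO library, at a ratio of 1.17 and 1.34 in Ku and 1.63 and 1.58 in Cov cells, and below it at 250 nM, at 0.816 and 0.675 in Ku and 0.654 and 0.657 in Cov cells. FARSB, the other subunit of the cytoplasmic phenylalanine enzyme, went the other way from FARSA against FARS2, by 0.54 and 0.32. The pairs share libraries and, for EPRS and FARS2, a gene, and no test was made over them.

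**Figure D3:**
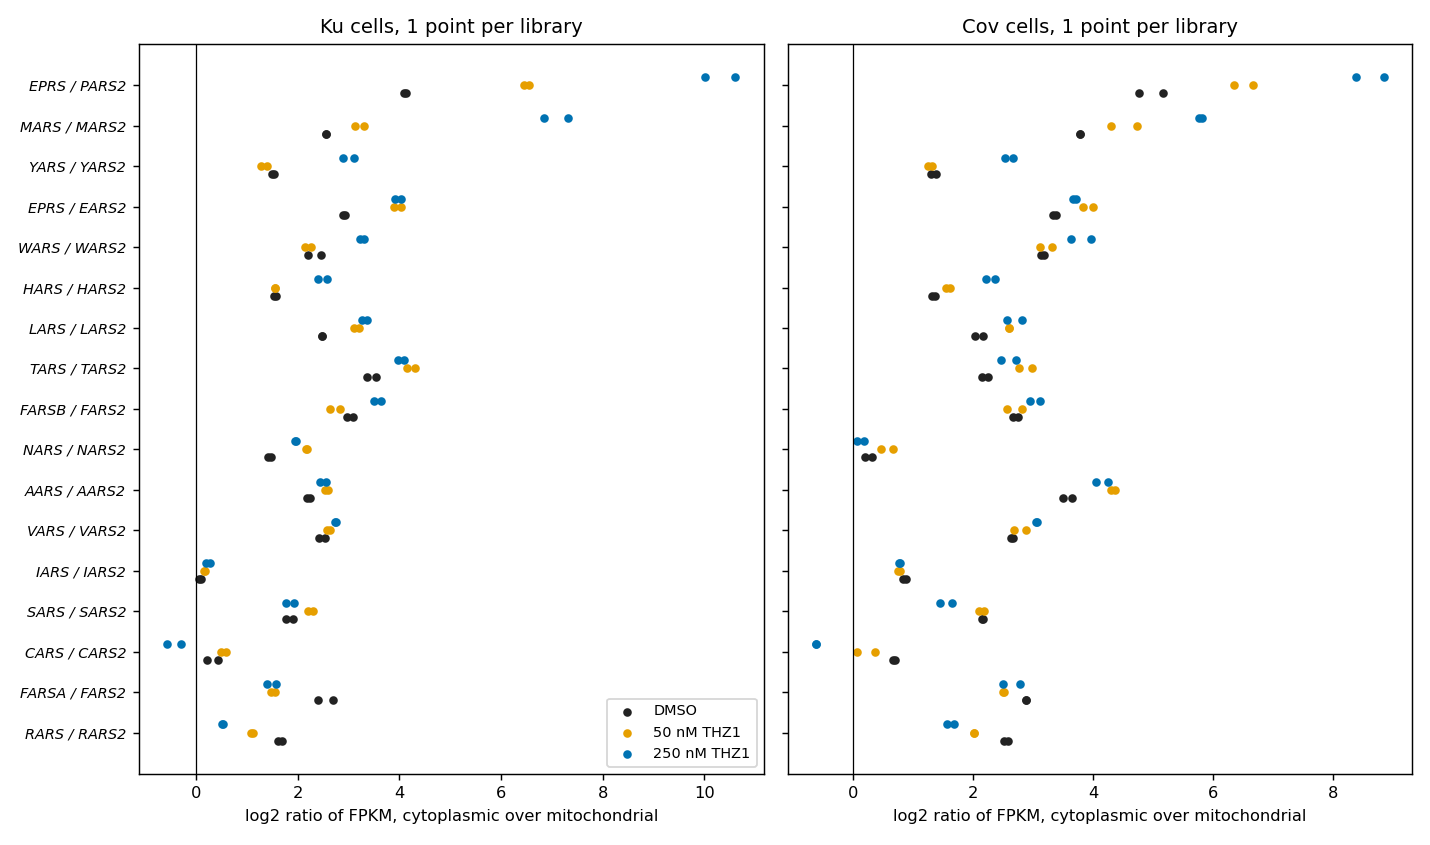
Log2 ratio of the FPKM of the cytoplasmic to the mitochondrial gene of each amino acid, with 1 point per library, in Ku cells (left) and Cov cells (right). The MARS/MARS2 ratio moved from 2.56 and 2.55 in DMSO to 7.32 and 6.84 at 250 nM in Ku cells, and the RARS/RARS2 ratio from 1.62 and 1.69 to 0.51 and 0.54.

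The 50 nM comparisons share their DMSO libraries with those at 250 nM. In Ku cells 6 of 36 members were called lower, against 11.3% of active genes, and 1 of 36 under either equal-median or median-of-ratios scaling. These 6 were FARSA, AARS for alanine and HARS among the cytoplasmic genes, and PARS2, AARS2 and NARS2 for asparagine among the mitochondrial genes, a list taken after its values were seen. None was called higher, against 0.0842% of active genes, and none was higher at an unadjusted p under 0.05, under which 26 were lower. The 50 nM libraries lay below the DMSO libraries for 31 members, as for 75.8% of active genes. Median log2 fold changes were -0.39 (cytoplasmic) and -0.76 (mitochondrial). PARS2 fell by 1.87 ± 0.11 on the log2 scale (limma adjusted p = 0.000252) and kept its call under every scaling. FARSA, at 27.7 and 27.1 FPKM against 61.4 and 59.1, fell by 1.11 ± 0.07 (adjusted p = 0.000282). GARS, the glycine enzyme, was the only member above DMSO on average, with 118 and 107.8 FPKM against 120.3 and 100.7, a log2 fold change of 0.03 ± 0.11 with overlapping groups (adjusted p = 0.80), which turned to -0.09 without the DMSO replicate 2 library and -0.03 without the 50 nM replicate 1 library. RARS2 had the smallest change of the mitochondrial genes, at -0.08 ± 0.12 (adjusted p = 0.59), with overlapping groups, and was slightly positive at 0.04 without the DMSO replicate 1 library and 0.03 without the 50 nM replicate 2 library. Leaving out 1 library ended most Ku calls at this dose. None of the 36 was called by limma without DMSO replicate 1 or without either 50 nM library, with 21 to 26 lower at an unadjusted p under 0.05, and 1, PARS2, was called without DMSO replicate 2.

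In Cov cells at 50 nM all 36 members were called lower, against 70.5% of active genes, and 0 under equal-median or median-of-ratios scaling, where 3 and 12 were lower and 17 and 10 higher at an unadjusted p under 0.05. On the spike-in scale none was higher at that level, and 0.0772% of active genes were called higher. All 36 were below DMSO in both libraries, as were 95.7% of active genes. The medians were -0.96 and -1.14 for cytoplasmic and mitochondrial genes. On the log2(FPKM + 1) scale the largest cytoplasmic fall was that of FARSA, by 1.40 ± 0.11 (limma adjusted p = 3.61e-05). The largest mitochondrial fall on that scale was that of AARS2, the mitochondrial alanine enzyme, by 1.68 ± 0.11 (adjusted p = 2.28e-05). By the ratio of mean FPKM, DMSO over 50 nM, PARS2 fell further, at 5.16 against 4.09 for AARS2. The smallest falls on the log2(FPKM + 1) scale were those of QARS, by 0.62 ± 0.08 (adjusted p = 0.000244), and of VARS2, the mitochondrial valine enzyme, by 0.72 ± 0.11 (adjusted p = 0.000666). AARS2 was at 10.46 and 10.15 FPKM in DMSO, 2.53 and 2.51 at 50 nM and 2.20 and 2.70 at 250 nM, so the higher dose did not separate from the lower. Without the DMSO replicate 2 library 19 members were called, and the calls of QARS and VARS2 were each lost without 3 of the 4 libraries compared, QARS without DMSO replicate 2 or either 50 nM library and VARS2 without either DMSO library or 50 nM replicate 1.

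The doses were also compared with each other. In Ku cells 16 members were lower at 250 nM than at 50 nM, 10 cytoplasmic and 6 mitochondrial, against 36.0% of active genes, while under equal-median scaling 2 were lower and 6 higher and under median-of-ratios scaling 3 and 3. In Cov cells 14 were lower, 7 of each class, against 24.4% of active genes, while under these scalings 1 and 2 were lower and 0 higher by limma, with 21 and 11 higher at an unadjusted p under 0.05. On the spike-in scale none was higher in either line, also at an unadjusted p under 0.05, beside 0.0421% and 0.0842% of active genes called higher in Ku and Cov cells. The groups did not overlap for 35 members in each line, against 87.7% and 75.6% of active genes. The libraries were fully ordered by dose, DMSO highest and 250 nM lowest without overlap, for 30 members in Ku cells, where 66.7% of active genes had that order, and for 35 in Cov cells, where 73.8% had it. The Ku exceptions were EPRS, GARS, LARS, FARS2, RARS2 and WARS2, and the Cov exception was AARS2. The step was steep for YARS2, which stood at 28.4 and 25.3 FPKM at 50 nM and 5.56 and 4.66 at 250 nM in Ku cells, and at 20.1 and 21.7 and then 5.96 and 5.35 in Cov cells. Counts of the step were unstable: they were 4 without the Ku replicate 1 library at 50 nM or either Ku library at 250 nM and 7 without replicate 2 at 50 nM, and in Cov cells 8 without replicate 2 at 50 nM and 6 and 5 without replicate 1 and replicate 2 at 250 nM.

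The multi-synthetase complex holds the synthetases DARS, EPRS, IARS, KARS, LARS, MARS, QARS and RARS beside its scaffold proteins. In Ku cells at 250 nM 6 of these 8 genes were called lower, and their median log2 fold change was -0.66, against -1.18 for the 12 cytoplasmic genes outside it, all of which were called, and -1.11 for all active genes, of which 68.6% were called. RARS was the only synthetase of the complex that fell further than the median of the active genes. In Cov cells all 8 were called, with a median of -1.37 against -1.70 for the other cytoplasmic genes and -1.31 for all active genes, of which 84.0% were called. Under equal-median scaling the directions turned for all 8 in Ku cells, from 0.08 for RARS to 1.45 for EPRS, and for the members other than RARS in Cov cells, where RARS stayed at -0.49. KARS, which serves both compartments from 1 gene, had 142.7 and 125.9 FPKM in DMSO and 86.7 and 79.4 at 250 nM in Ku cells, a change of -0.69 ± 0.09 (limma adjusted p = 0.000398), and changed by -1.16 ± 0.08 in Cov cells (adjusted p = 6.80e-06). EPRS and LARS changed by -1.36 ± 0.11 (adjusted p = 1.52e-05) and -1.15 ± 0.11 (adjusted p = 2.47e-05) in Cov cells. By catalytic fold, the 19 class I genes had medians of -0.95 in Ku and -1.48 in Cov cells and the 17 class II genes -1.33 and -1.69. EPRS was counted in class I by its glutamate domain, although its proline domain is of class II. These are descriptions of medians, and no test was made between the groups of genes.

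Outside the complex, GARS also makes both the cytosolic and the mitochondrial enzyme. It went from 120.3 and 100.7 FPKM to 60.9 and 54.1 at 250 nM in Ku cells, a log2 fold change of -0.93 ± 0.11 (limma adjusted p = 0.000289), and from 161.3 and 175.7 to 47.4 and 45.6 in Cov cells, -1.83 ± 0.10 (adjusted p = 1.92e-06). Relative to the median of active genes the change was 0.18 in Ku and -0.53 in Cov cells. WARS, which charges tryptophan and is also known as an interferon-induced gene, was above the median of the active genes in Ku and below it in Cov cells. It went from 87.8 and 78.7 FPKM to 49.9 and 48.6 in Ku cells, -0.74 ± 0.07 (adjusted p = 0.000132), and from 191.4 and 211.3 to 56.5 and 56.1 in Cov cells, -1.82 ± 0.09 (adjusted p = 1.38e-06). DMSO levels of WARS also differed, at 83.2 in Ku and 201.4 in Cov cells, on scales that were set separately. The members at either end of the range in 1 line are also given for the other. CARS changed by -1.56 ± 0.11 in Ku cells at 250 nM (adjusted p = 3.15e-05), VARS by -0.88 ± 0.07 (adjusted p = 4.37e-05) and VARS2 by -1.02 ± 0.12 (adjusted p = 0.000337). In Cov cells RARS2 changed by -1.55 ± 0.12 (adjusted p = 1.27e-05), IARS2 by -1.30 ± 0.11 (adjusted p = 1.55e-05) and VARS2 by -1.10 ± 0.11 (adjusted p = 4.72e-05). The Ku calls of GARS, KARS, WARS and VARS2 were lost without either 250 nM library, and those of GARS, KARS and VARS2 also without DMSO replicate 1.

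A further list of 16 genes that work beside the synthetases covered the scaffold of the complex, the mitochondrial glutamine pathway, formylation, selenocysteine, editing and delivery to the ribosome. At 250 nM 14 of 16 were called lower in Ku cells, with a median of -1.11, and 16 of 16 in Cov cells, with a median of -1.53, and at 50 nM 2 and 12 were called. Of all active genes 68.6% and 84.0% were called lower at 250 nM and 11.3% and 70.5% at 50 nM, and the Ku median of the list equalled that of the active genes to 2 decimals. The largest fall in each line was that of PTRH2, a mitochondrial peptidyl-tRNA hydrolase, at -3.51 in Ku and -3.18 in Cov cells. AIMP2, a scaffold protein of the complex, changed by -2.25 and -2.80. AIMP1, another scaffold protein, changed by -0.83 in Ku and -1.23 in Cov cells. QRSL1, GATC and PET112 encode the subunits of the amidotransferase that makes mitochondrial glutaminyl-tRNA, and changed by -2.31, -1.74 and -1.07 in Ku cells. EEF1A1, the elongation factor that delivers charged transfer RNA in the cytosol, changed by -0.57 in Ku cells, where it was not called, and TUFM, its mitochondrial counterpart, by -0.87. All values in this list are on the spike-in scale.

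Gene features were set beside the fall of the members. Of 4 features examined, exon number had the highest r over all 36 members in both lines and is described for that reason, chosen after the values were seen. For the others, taken as log2, r was 0.54 in Ku and 0.23 in Cov cells for gene span, 0.46 and 0.18 for the DMSO level, and 0.29 and 0.27 for transcript length. At 250 nM the log2 fold change correlated with the number of exons of the MANE Select transcript (Pearson's r 0.65 in Ku and 0.59 in Cov cells, Spearman's rho 0.58 and 0.54, n = 36 genes), so members with fewer exons lay lower. Genes of a library are not independent replicates, and the points share libraries and their scaling. Within the 20 cytoplasmic genes r was 0.45 in Ku and 0.48 in Cov cells, where transcript length gave 0.55 and 0.43, and within the 16 mitochondrial genes 0.71 and 0.67. Over the 33 members with more than 5 exons, a limit chosen after the values were seen, r was 0.45 in both lines. Across 11942 active genes with such a transcript r was 0.13 in Ku and 0.07 in Cov cells. The members with the fewest exons were MARS2 with 1, PARS2 with 2, YARS2 with 5 and WARS2 with 6, and all are mitochondrial. MARS2, PARS2 and YARS2 lay below the medians of genes with like exon numbers. The 231 active genes with 1 exon had a median of -1.73 in Ku and -1.54 in Cov cells, and the 3128 with 2 to 5 exons -1.24 and -1.34. At the other end the 12 members with over 20 exons had medians of -0.92 and -1.37, beside -1.07 and -1.35 for 1596 active genes. HARS and HARS2 both have 13 exons.

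**Figure D4:**
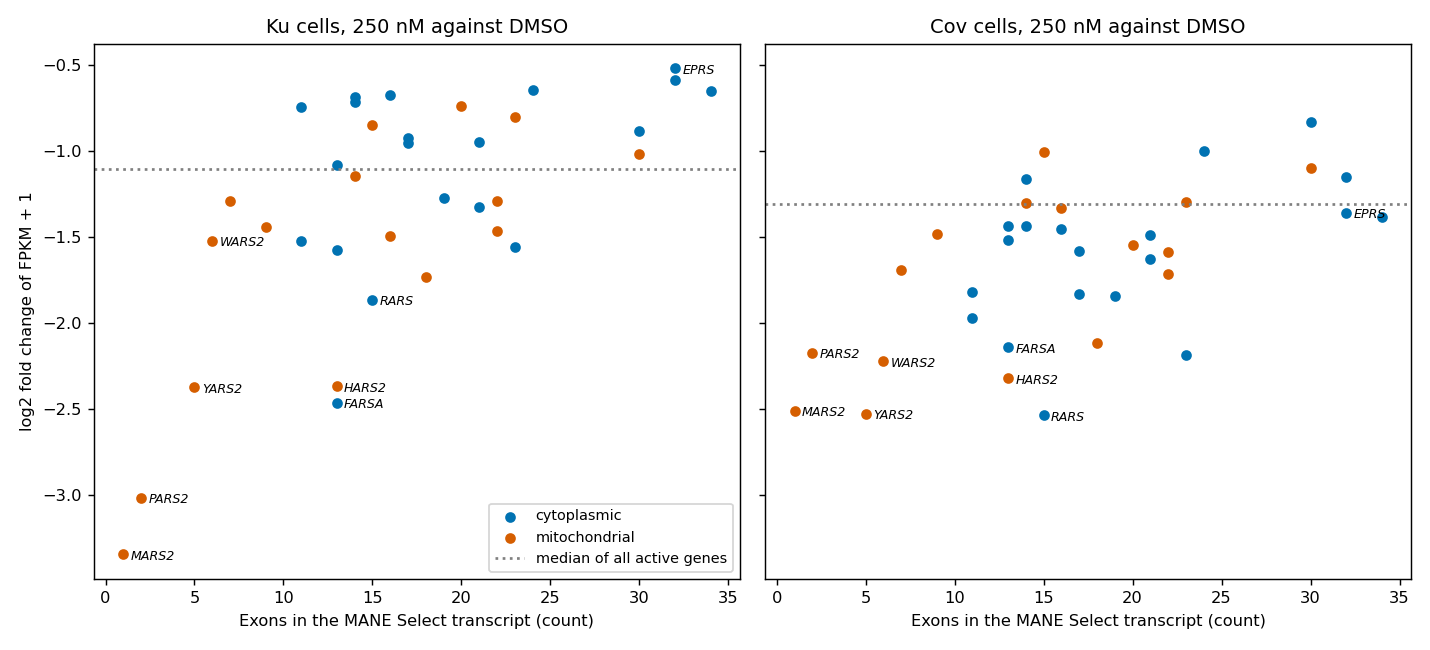
Log2 fold change at 250 nM against the number of exons of each member, cytoplasmic in blue and mitochondrial in orange, in Ku cells (left) and Cov cells (right), on the spike-in scale, where equal-median scaling shifts all points up. The dotted line is the median of all active genes, and MARS2, PARS2 and YARS2, with 1, 2 and 5 exons, lie in the lower left of both panels.

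A last comparison asked which promoter motifs the classes carry. RefSeq promoters, 250 bases before to 50 after the start, were found for 30 of the 36 members, 16 cytoplasmic and 14 mitochondrial, and were searched on both strands together with 27305 promoters, 1 per gene. The 27305 were not limited to active genes, whereas all members are active, so the shares below are not those of expressed genes. The C/EBP-ATF response element TGATGNAA, which ATF4 binds in genes of the amino acid response, lay in 6 of the 16 cytoplasmic promoters and 1 of the 14 mitochondrial ones, against 3.67% of all promoters. The matches are shown with 8 bases on each side so that the matched letters and their surroundings can be compared. Capitals mark the motif or its reverse complement, and each sequence runs 5′ to 3′ on the strand of its gene in GRCh38.p14.
AARS element: tctcgcagTTGCATCAgccaagtt
CARS element: ggcggcggTTGCATCAgattctag
IARS element: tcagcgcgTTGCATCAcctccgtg
MARS element: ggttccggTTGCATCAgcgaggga
NARS element: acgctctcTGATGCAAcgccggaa
TARS element: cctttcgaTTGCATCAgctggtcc
YARS2 element: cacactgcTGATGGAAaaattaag
They lie at chr16:70289678-70289701 (AARS, minus strand), chr11:3057410-3057433 (CARS, minus), chr9:92293695-92293718 (IARS, minus), chr12:57488056-57488079 (MARS, plus), chr18:57621807-57621830 (NARS, minus), chr5:33440959-33440982 (TARS, plus) and chr12:32756079-32756102 (YARS2, minus). The ETS motif lay in 4 cytoplasmic and 3 mitochondrial promoters (4.43% of all promoters), the NRF1 core in 0 and 2 (3.27%), the E-box CACGTG in 1 and 3 (7.43%), the CCAAT box in 7 and 9 (35.7%) and the SP1 motif GGGCGG in 11 and 10 (44.6%). The ETS counts hold HARS among the cytoplasmic and HARS2 among the mitochondrial promoters, whose matches are the same sites in the stretch between their starts. A match is a run of letters in a window and not a bound site, and no test was made.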

How the data were processed

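The deposited values are FPKM that the authors made from stranded poly(A) RNA libraries by aligning reads to hg19 with HISAT and quantifying them with Cufflinks and Cuffnorm, normalized to ERCC spike-ins mixed into RNA in proportion to cell count, in 1 table per line. Annotation, versions and the strand setting are not given in the sources used here. FPKM are not counts, so no count model was used. Depth is unknown. Groups came from the labels.

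Genes with FPKM above 1 in any of 12 libraries (14251) were fitted per line as log2(FPKM + 1) with limma 3.58.1 (R 4.3.3), trended eBayes and Benjamini-Hochberg adjustment, and called at an adjusted p under 0.001 with a log2 fold change beyond 0.5. Scripts were tested on simulated data. Summaries used Python 3.11.15, pandas 2.3.3, scipy 1.17.1 and matplotlib 3.10.9. Alternatives were a pseudocount of 0.1, other expression minimums and thresholds, equal-median and median-of-ratios scaling, a replicate block, only the groups compared, no trend, and leaving out each library. Across genes, deviations of same-numbered libraries correlated at -0.0703 to 0.0282, a value that cannot show a shift shared by all genes of a library. Summed cytoplasmic FPKM in Ku replicates 1 and 2 was 2099 and 1864 in DMSO, 1611 and 1488 at 50 nM and 1001 and 934.7 at 250 nM. In Cov cells replicate 2 was higher in DMSO and at 50 nM and lower at 250 nM. Whether the numbers pair libraries is therefore not known.

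Fold changes are printed for the 3 largest and 3 smallest falls of each class at 250 nM in either line, for HARS, HARS2, GARS, KARS, EPRS and WARS, and for the extremes of each class at 50 nM. Other members are given by level, range and count. The members and lists were chosen with earlier results of these data known. Promoters came from a RefSeq table (GRCh38.p14) and gene positions from GENCODE lifted to GRCh37.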

Additional observations from a re-analysis of the deposited data

How the results depend on the processing

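Of 84 recomputed counts of members called lower, 46 stayed within 1.5 times the reported count. With equal-median scaling the counts were 1, 2 and 2 in Ku cells (50 nM, 250 nM and the step between doses) and 0, 3 and 1 in Cov cells, and with median-of-ratios scaling 1, 5 and 3, and 0, 6 and 2. At 50 nM in Cov cells limma then had 3 and 12 members lower at an unadjusted p under 0.05. With no expression minimum the count was 0 at Ku 50 nM (26 lower at an unadjusted p under 0.05), 6 for the Ku step and 8 for the Cov step. With only the compared groups in the limma fit it was 0 at Ku 50 nM (25 at an unadjusted p under 0.05) and 9 for the Cov step. An adjusted p under 0.05 gave 15 at Ku 50 nM. A log2 fold change beyond 1 gave 3 and 21 in Ku cells at 50 and 250 nM, and 19 and 5 in Cov cells at 50 nM and for the step. With a replicate block the counts were 5, 36 and 19 in Ku cells and 23, 36 and 4 in Cov cells. Whether the numbers pair the libraries is not known, so these are given only as counts. Leaving out 1 library gave 0 to 1 at Ku 50 nM, 17 to 32 at Ku 250 nM, 4 to 7 for the Ku step, 19 to 34 at Cov 50 nM, 35 to 36 at Cov 250 nM and 5 to 11 for the Cov step. The cause of these shifts was not tested.

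The cytoplasmic minus mitochondrial median against DMSO stayed positive in the 36 values recomputed for the comparisons with DMSO, and 24 of 36 recomputed values stayed within the spread between library pairs. Not all of these could have turned. Without an expression minimum the same members enter, so those values could not change. Rescaling multiplies all genes of a library by 1 factor, so those values could move only through the pseudocount, with which low genes shift less. The reported values were 0.37 and 0.52 in Ku and 0.18 and 0.14 in Cov cells at 50 and 250 nM. A pseudocount of 0.1 gave 0.61 at Ku 250 nM, 0.23 at Cov 50 nM and 0.30 at Cov 250 nM. Equal-median scaling gave 0.63, 0.23 and 0.34, and median-of-ratios scaling 0.61, 0.23 and 0.29. A minimum of 10 FPKM gave 0.26 at Ku 50 nM and 0.10 at Cov 50 nM. Without 1 library the values were 0.35 to 0.38, 0.46 to 0.55, 0.15 to 0.22 and 0.11 to 0.17.

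Of 641 recomputed values for single genes, 498 kept direction and call, 77 lost the call, 10 gained it and 56 changed sign. With equal-median scaling the log2 fold changes at 250 nM in Cov cells turned to 0.91 for CARS2, 0.69 for EPRS, 0.22 for GARS, 0.51 for HARS, 0.73 for IARS2, 0.90 for KARS, 0.88 for LARS, 1.05 for QARS, 0.40 for RARS2, 1.20 for VARS, 0.70 for VARS2 and 0.24 for WARS. In Ku cells they turned to 0.31 for CARS, 1.03 for CARS2, 1.45 for EPRS, 1.03 for GARS, 0.37 for HARS, 1.15 for IARS2, 1.28 for KARS, 1.37 for LARS, 1.31 for QARS, 0.0827 for RARS, 1.18 for RARS2, 1.06 for VARS, 0.71 for VARS2 and 1.21 for WARS. At 50 nM they turned to 0.58 for QARS and 0.36 for VARS2 in Cov and 0.60 for RARS2 in Ku cells. With median-of-ratios scaling the Cov values at 250 nM were 0.48 for CARS2, 0.23 for EPRS, 0.0628 for HARS, 0.28 for IARS2, 0.44 for KARS, 0.43 for LARS, 0.59 for QARS, 0.75 for VARS and 0.30 for VARS2. The Ku values were 0.53 for CARS2, 0.93 for EPRS, 0.51 for GARS, 0.63 for IARS2, 0.76 for KARS, 0.85 for LARS, 0.79 for QARS, 0.67 for RARS2, 0.54 for VARS, 0.25 for VARS2 and 0.69 for WARS. At 50 nM they were 0.39 for QARS and 0.19 for VARS2 in Cov and 0.46 for RARS2 in Ku cells. Leaving out 1 library at Ku 50 nM gave -0.0923 to 0.162 for GARS and -0.2004 to 0.0375 for RARS2. Depth is unknown, and 2 libraries per group limit the precision.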
